A study of Drosophila melanogaster with 9 samples.

Results

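The 9 genes described here belong to p38 and related stress MAP kinase signalling in Drosophila. They were taken by name from the platform's probe table: the kinases Ask1, wnd, Mekk1, Mkk4, lic, p38a and p38c, the signalling protein gene Gadd45 and the transcription factor gene Atf-2. All 9 were found, each with 1 probe set, among 11982 genes tested. The third p38 kinase gene, p38b, was not analysed here.

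The data are 9 Affymetrix arrays of RNA from sorted cells of the wing imaginal disc, the epithelial sac of the larva that forms the adult wing. The discs were those of larvae about 8 days old, of the w1118 background, and every disc carried the same transgenes. The driver en-gal4, active in the posterior compartment, expressed the caspase inhibitor p35, a double-stranded RNA against the spindle gene asp and the fluorescent protein RFP. A reporter that couples the matrix metalloproteinase gene MMP1 to GFP was also present. Anterior cells (RFP-negative, GFP-negative), posterior cells (RFP-positive, GFP-negative) and delaminating cells (RFP-positive, GFP-positive) were each sampled as 3 biological replicates. Posterior and delaminating cells thus shared p35, the asp RNA and RFP, which anterior cells did not express. No group carried p35 without the asp RNA, so in any comparison with anterior cells the compartment, p35, the asp RNA and RFP cannot be told apart.

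Stress MAP kinase signalling runs through 3 tiers. A MAP3K, turned on by oxidative stress, injury or damage, phosphorylates a MAP2K, and the MAP2K phosphorylates a terminal MAP kinase of the p38 or JNK type. The terminal kinase acts on transcription factors such as Atf-2. In the wing disc these cascades are known for their roles in wound healing, regeneration and the response to dying cells. They are controlled mostly by phosphorylation, which RNA levels do not measure.

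Values were RMA log2 signals. The arrays had medians of 7.48 to 7.57 and lower quartiles of 6.05 to 6.36. All values of the 9 genes lay above those quartiles, between 7.37 and 12.23. Because probe sets differ in their response, each gene was compared only with itself across groups. The compartment labels were borne out by en, at 7.16 ± 0.31 in anterior cells against 10.54 ± 0.09 in posterior and 10.43 ± 0.53 in delaminating cells, and by ci, at 9.97 ± 0.31, 8.33 ± 0.02 and 7.90 ± 0.13 (mean log2 signal ± SD, n = 3 arrays). The other anterior marker, ptc, differed less, at 11.99 ± 0.06, 11.59 ± 0.14 and 11.22 ± 0.30, and limma called it in no comparison. Neither asp nor the reporter's gene was analysed here. Anterior replicate 3 stood apart: it correlated at 0.889 to 0.915 with the remaining 8 arrays, which correlated at 0.943 to 0.987 among themselves. It had the lowest of all 9 values for 7 of the 9 genes, as it did for 40.5% of all genes. Delaminating replicate 2 was the highest of the 3 delaminating arrays for 6 of the 9 genes, against 33.5% of all genes.

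The cell types in the sorts also differed, as the plot of marker signals by array shows. The summed signal of 5 muscle precursor markers (log2 of the sum) lay between 13.51 and 13.84 in anterior, 11.08 and 11.33 in posterior and 9.83 and 10.98 in delaminating cells. Of these 5 genes, limma called 4 lower in posterior and 5 lower in delaminating than in anterior cells. Their median log2 differences from anterior cells were -4.27 and -4.96. In both RFP-positive groups hbs was the brightest, at means of 10.88 and 9.61, and it differed by -0.90 and -2.17. Against posterior cells Him (-1.95) and hbs (-1.27) were called lower in delaminating cells, while zfh1 differed by 1.37 without a call. For 11 hemocyte markers, genes of larval blood cells, the sum lay between 13.48 and 13.93 in anterior and 11.37 and 12.12 in posterior cells. In delaminating cells it was 12.19, 14.29 and 11.84, with the high value in replicate 2. In anterior cells this sum rested mostly on Col4a1 and vkg, with means of 12.83 and 11.84. These were 10.31 and 9.13 in posterior and 11.20 and 9.94 in delaminating cells. Single markers did not all follow the sum. Against anterior cells, 4 of 11 had a higher mean in posterior cells and 9 of 11 in delaminating cells. The median log2 differences were -0.82 and 0.82. The sum of 4 glial markers lay between 10.14 and 10.64 in anterior, 10.67 and 10.93 in posterior and 11.32 and 11.52 in delaminating cells. However, repo, which defines glia, lay below the lower quartile on all 9 arrays. In delaminating against posterior cells moody differed by 2.13, but Gli by 0.28, nrv2 by 0.12 and repo by 0.07. Only moody was called, 10.83-fold higher in delaminating than in anterior cells (adjusted p = 0.0021). There Gli differed by 1.66, repo by 0.43 and nrv2 by 0.28. For 5 markers of the disc epithelium the sum was 13.44 to 13.72 in anterior, 13.49 to 13.66 in posterior and 13.21 to 13.35 in delaminating cells, so that every delaminating array lay below every other. Among them tsh was called lower in all 3 comparisons, 4.45-fold in delaminating against anterior cells (adjusted p = 0.000221). No other marker of this list was called, and they did not move together. In delaminating against anterior cells shg differed by 0.49, ap by 0.26, vg by -0.04 and nub by -0.43. Against posterior cells the values were 0.28, -0.17, -0.08 and -0.63. The sum of 3 tracheal markers was 10.99 to 11.79 in anterior, 12.18 to 12.45 in posterior and 11.77 to 12.23 in delaminating cells. Of these, Gasp was called 4.27-fold higher in delaminating than in anterior cells, with means of 10.37 and 8.27 (adjusted p = 0.0136). Its anterior values were 9.23, 8.16 and 7.44, the lowest in replicate 3. In the same comparison btl differed by -0.04 and vvl by 0.29, and neither was called. Against posterior cells vvl differed by -0.63, btl by 0.05 and Gasp by 0.37 in delaminating cells. For 3 neuronal markers the sum lay between 11.08 and 11.43 on every array, the groups overlapped and 0 were called. What part these cell types had in the values of the kinase genes was not tested. In such sorted bulk samples, fewer cells of a type and less RNA per cell cannot be told apart.

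**Figure D1:**
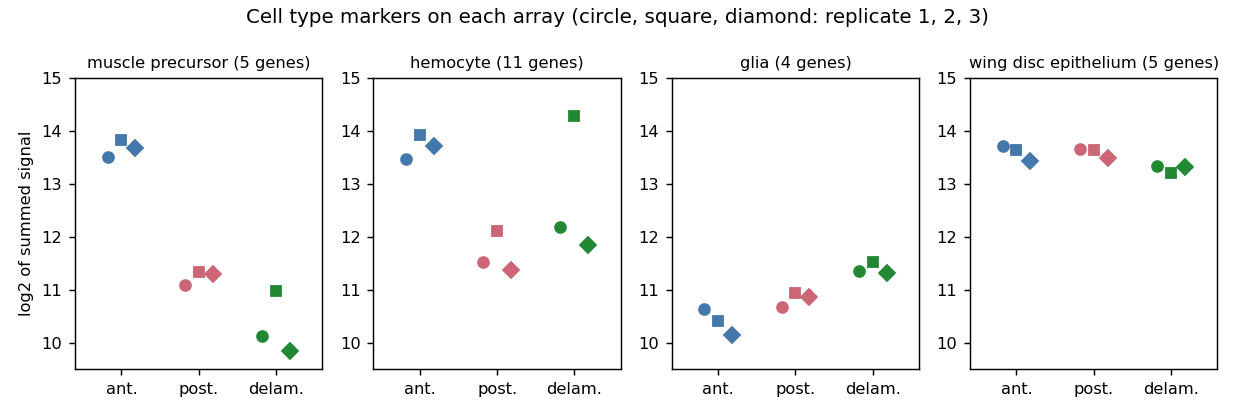
Summed signal of 4 marker lists on each of the 9 arrays (log2 of the sum of linear signals), by group, with the symbol giving the replicate. Muscle precursor markers were highest in the 3 anterior arrays, from 13.51 to 13.84, and the hemocyte sum of delaminating replicate 2 was 14.29 against 12.19 and 11.84 in the other two.

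Across the 9 genes, the arrays of both RFP-positive populations lay above those of anterior cells for Gadd45 and wnd, the delaminating arrays lay above both other groups for p38a and p38c, and the posterior arrays lay above both others for Atf-2. For Ask1, Mekk1, Mkk4 and lic every pair of groups overlapped. Groups that did not overlap were common, at 18.4% to 22.3% of all genes in a comparison, and p38c cleared the closest anterior array by 0.02. Of 27 tests, 1 passed: Gadd45 was 1.91-fold higher in delaminating than in anterior cells (limma moderated test, Benjamini-Hochberg adjusted p = 0.0445, threshold 0.05). In that comparison 458 of 11982 genes passed, which is 3.82%, 287 of them higher (2.4%) and 171 lower (1.43%). The count fell to 286 without anterior replicate 2, 244 without delaminating 1 and 212 without delaminating 3. The split moved to 266 higher and 250 lower with a second quantile normalization and to 269 and 245 with arrays centred on their medians.

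In delaminating against posterior cells limma called 0 of the 9 genes (0.801% of all genes). At an unadjusted p under 0.05 there were 3 of 9, against 9.98% of all genes. They were p38c and p38a above (5.31% of all genes) and Atf-2 below (4.67%). These 3 were also the genes whose groups did not overlap, which held for 22.3% of all genes, 10.7% above and 11.5% below. In posterior against anterior cells 0 of 9 were called (0.576% of all genes), and 2, Atf-2 and Gadd45, had an unadjusted p under 0.05, both higher (9.6% of all genes, 5.98% higher and 3.61% lower). Groups did not overlap for those 2 and for wnd, 3 of 9 and all higher, against 18.4% of all genes (11.9% higher and 6.47% lower). In delaminating against anterior cells 3 genes, Gadd45, wnd and p38a, had an unadjusted p under 0.05, all higher (16.6% of all genes, 10.8% higher and 5.77% lower). Groups did not overlap for 4, also all higher (21.2% of all genes, 13.2% higher and 8.05% lower). With 9 genes, such shares are too coarse to be set firmly against the background.

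The median log2 difference of the 9 genes was 0.11 in delaminating against posterior cells, beside a median of -0.003 over all genes. It was 0.32 in posterior against anterior cells (all genes 0.085) and 0.44 in delaminating against anterior cells (all genes 0.054). The number of genes with a difference above 0 was 6, 8 and 9 in the same order, where 49.5%, 60.7% and 56.2% of all genes lay above 0. All values of the 9 genes lay above the lower quartiles of the arrays, while these shares count dim genes too. Anterior replicate 3, the lowest array for 7 of the 9 genes, enters both comparisons with anterior cells. With a second quantile normalization lic (-0.11) and Mekk1 (-0.051) lay below 0 in delaminating against anterior cells. So did p38a, lic and Mekk1 in posterior against anterior cells. Centring the arrays on their medians lowered every difference of posterior against anterior cells by 0.109 and of delaminating against anterior cells by 0.097, and raised those of delaminating against posterior cells by 0.012. All 3 comparisons share arrays in pairs, so their values for a gene are not independent.

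**Figure D2:**
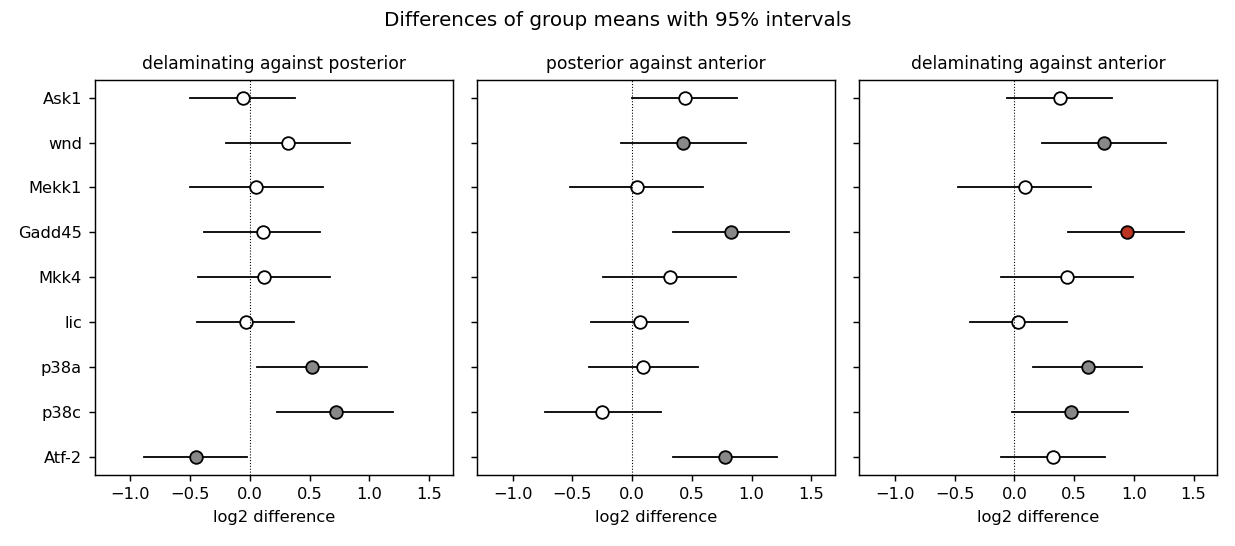
Differences of group means (log2) of the 9 genes in the 3 comparisons, as points with 95% intervals from limma. The red point passed the adjusted threshold (Gadd45, 0.94), grey points are genes whose groups did not overlap, and white points are genes whose groups overlapped.

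Gadd45, on chromosome arm 2R (probe set 1625139_at), encodes a small protein of the growth arrest and DNA damage family. In mammals, GADD45 proteins bind and activate a MAP3K upstream of p38 and JNK. In anterior cells its log2 signal was 11.24, 11.38 and 10.76. Posterior cells gave 11.79, 12.06 and 12.01, and delaminating cells 12.23, 11.73 and 12.23. Every RFP-positive array thus lay above every anterior array, while posterior and delaminating arrays overlapped. The difference of delaminating from anterior cells was 0.94 ± 0.22 (log2, SE), with a 95% interval from 0.45 to 1.42. Posterior cells lay 0.83 ± 0.22 above anterior cells, or 1.77-fold, which ranked 202 of 11982 genes by p but did not pass (adjusted p = 0.21). Between delaminating and posterior cells the difference was 0.11, with an interval from -0.38 to 0.59 (adjusted p = 0.975).

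The call of Gadd45 was close to the threshold. Its difference stayed between 0.75 and 1.10 in all 19 alternative settings, but the call was kept in 9 and lost in 10. It was lost when any array except delaminating replicate 2 was left out. The adjusted p was then 0.0739 without anterior replicate 1, 0.0593 without anterior 2, 0.0599 without anterior 3, 0.165 without delaminating 1 and 0.159 without delaminating 3. Leaving out posterior 1, 2 or 3, which enter only through the shared spread, gave 0.0767, 0.0781 and 0.0797. It was also lost with the replicate number as a block (0.0916) and with only the groups compared in the fit (0.142). Without both anterior 3 and delaminating 2 the difference was 0.92 at an adjusted p of 0.0137. Without anterior 3 alone it was 0.75, the low end of the range. Posterior cells then lay 0.64 above anterior cells.

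**Figure D3:**
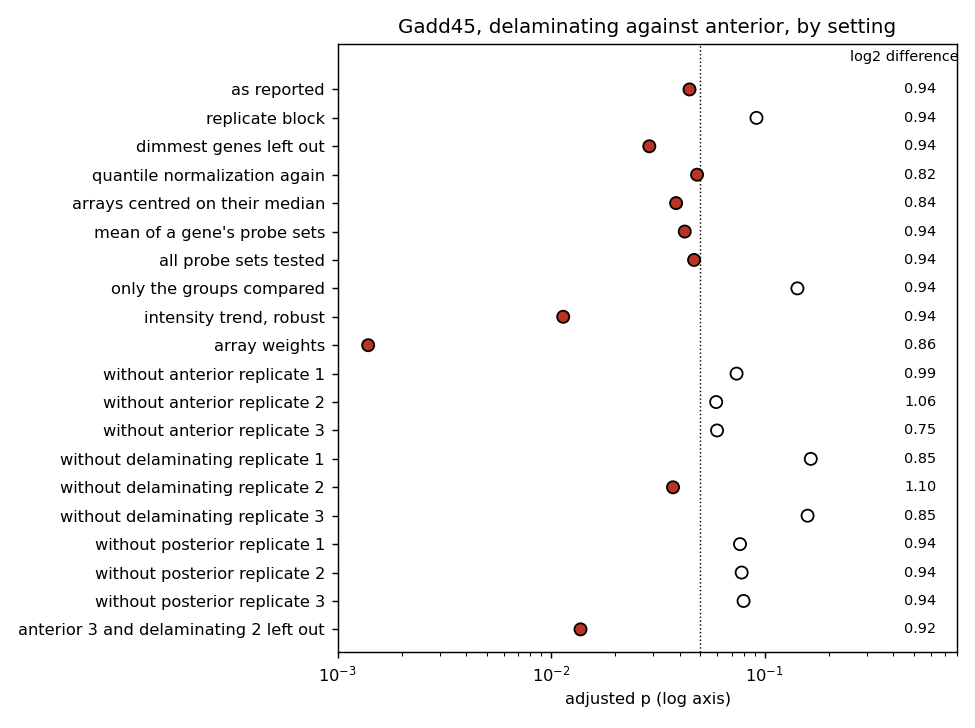
Adjusted p (log axis) of Gadd45 in delaminating against anterior cells, as reported and in 19 alternative settings, with the log2 difference of each setting at the right. Filled points lie below the dotted threshold of 0.05, and the difference ranges from 0.75 to 1.10.

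Among the 3 MAP3K genes, wnd and Ask1 were lowest on average in anterior cells and Mekk1 was near level. wnd, on 3L (1633727_s_at), encodes the fly DLK kinase, known for signalling axon injury and held low by the ubiquitin ligase Highwire. Its log2 signal was 7.95, 7.88 and 7.37 in anterior, 8.05, 8.33 and 8.11 in posterior and 8.18, 8.90 and 8.37 in delaminating cells. Both RFP-positive groups lay entirely above the anterior group, and they overlapped with each other. Delaminating cells were 0.75 ± 0.23 above anterior cells, 1.68-fold, without passing (adjusted p = 0.128). The differences of 0.43 for posterior against anterior (adjusted p = 0.563) and 0.32 for delaminating against posterior (adjusted p = 0.76) were smaller. Without anterior replicate 3, the value of posterior against anterior cells was 0.25. Without delaminating replicate 2, that of delaminating against posterior cells was 0.11. Without both arrays delaminating cells lay 0.36 above anterior cells.

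Ask1, on 3R (1635903_at), encodes a MAP3K that responds to oxidative stress and feeds both p38 and JNK. Anterior cells gave 9.96, 9.65 and 9.25, the widest spread of its groups. Posterior cells gave 9.95, 10.22 and 10.00, and delaminating cells 10.03, 9.94 and 10.02. Anterior replicate 1 overlapped both other groups, and the difference of posterior from anterior cells was 0.44 ± 0.20 (adjusted p = 0.523), or 0.26 without anterior replicate 3. Delaminating cells differed from anterior cells by 0.38 (adjusted p = 0.381), or 0.19 without anterior replicate 3, and from posterior cells by -0.06, with an interval from -0.50 to 0.38.

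Mekk1, on 3R (1639526_a_at), encodes a MAP3K that acts upstream of p38 in the stress response. Its signal was 10.23 ± 0.25 in anterior cells, 10.27 ± 0.01 in posterior cells and 10.32 ± 0.50 in delaminating cells, where replicate 2 was at 10.88 and the others at 10.16 and 9.92. The 3 posterior arrays lay within the range of both other groups. Delaminating cells differed by 0.05 from posterior and by 0.09 from anterior cells, and posterior from anterior cells by 0.04, with adjusted p of at least 0.891. The interval for delaminating against anterior cells ran from -0.47 to 0.64, and changes within it could not be told from 0 with these arrays.

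The MAP2K genes Mkk4 and lic gave no pair of groups without overlap. Mkk4, on 3R (1630916_at), encodes a kinase that works beside hep in activating JNK. Its levels were 8.47, 8.59 and 7.75 in anterior, 8.55, 8.78 and 8.42 in posterior and 8.53, 9.01 and 8.58 in delaminating cells. Anterior replicate 3 alone lay far below the rest, and the other 2 anterior values fell inside the posterior range. Delaminating cells differed from anterior cells by 0.44 ± 0.25 (adjusted p = 0.42), with an interval from -0.11 to 0.99. Posterior cells differed from anterior cells by 0.32 (adjusted p = 0.609), and delaminating from posterior cells by 0.12, with an interval from -0.43 to 0.67. Without anterior replicate 3 the differences from anterior cells were 0.18 for delaminating and 0.057 for posterior cells. Without delaminating replicate 2 the first was 0.29.

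lic, on the X chromosome (1633665_at), encodes licorne, the MAP2K known to phosphorylate p38. It was 10.36, 10.50 and 10.03 in anterior, 10.37, 10.35 and 10.37 in posterior and 10.09, 10.50 and 10.40 in delaminating cells. Its range of group means, 0.07, was the narrowest of the 9 genes. The 3 differences were -0.03 for delaminating against posterior, 0.07 for posterior against anterior and 0.03 for delaminating against anterior cells. Their intervals lay between -0.44 and 0.47, and the sign of each changed in some of the alternative settings.

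Both measured p38 genes had their highest levels in delaminating cells. p38a and p38c are neighbours on 3R with no gene between them in the RefSeq annotation of Release 6. p38a (1636173_s_at) encodes a broadly acting stress kinase. The _s_at suffix, which wnd's probe set shares, marks sets that can match transcripts of several genes, and cross-matching was not tested. Its log2 signal was 7.99, 7.73 and 7.65 in anterior, 7.86, 7.96 and 7.84 in posterior and 8.37, 8.06 and 8.79 in delaminating cells. The delaminating arrays lay above all 6 others, by 0.08 at the closest anterior array and 0.11 at the closest posterior array. The difference was 0.52 ± 0.20 against posterior cells, 1.44-fold (unadjusted p = 0.0293, adjusted p = 0.403), and 0.62 ± 0.20 against anterior cells, 1.53-fold (adjusted p = 0.156). Posterior and anterior cells overlapped, at a difference of 0.09.

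p38c (1631486_at) is known in the fly gut for a part in the response to infection. Its values were 8.08, 8.25 and 8.33 in anterior, 8.06, 7.71 and 8.14 in posterior and 8.35, 9.09 and 8.62 in delaminating cells. Again the delaminating arrays lay above all others, by 0.02 at the closest anterior array and 0.21 at the closest posterior array. Against posterior cells the difference was 0.72 ± 0.22, 1.64-fold, with an interval from 0.23 to 1.20. It was the smallest p of the 9 genes in that comparison and ranked 406 of 11982 (unadjusted p = 0.00841, adjusted p = 0.248). The highest value was that of delaminating replicate 2, the array with the high hemocyte signal, and without it the difference was 0.51. For p38a, whose lowest delaminating value was that array's, leaving it out gave 0.69 (adjusted p = 0.276), while leaving out delaminating replicate 3, its highest array, gave 0.33 (adjusted p = 0.731). Without both anterior replicate 3 and delaminating replicate 2, the adjusted p was 0.0852 for p38a and 0.181 for p38c. Posterior cells were not shown to differ from anterior cells in p38c, with -0.25 ± 0.22 (adjusted p = 0.639). Delaminating cells lay 0.47 above anterior cells, or 0.27 without delaminating replicate 2.

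Atf-2, on 2R (1636451_a_at), encodes a bZIP transcription factor that p38 phosphorylates. Anterior cells gave 7.62, 7.51 and 7.39, posterior cells 8.43, 8.21 and 8.22, and delaminating cells 7.92, 8.11 and 7.47. The posterior arrays lay above all others, and delaminating replicate 3 fell inside the anterior range. Posterior cells were 0.78 ± 0.19 above anterior cells, 1.71-fold, with an interval from 0.34 to 1.21, the smallest p of the 9 genes in that comparison (rank 174 of 11982, adjusted p = 0.178). From posterior to delaminating cells the level differed by -0.45 ± 0.19 (unadjusted p = 0.0419, adjusted p = 0.46). That value was -0.27 without delaminating replicate 3. Delaminating and anterior cells overlapped, at a difference of 0.32 (adjusted p = 0.449), or 0.18 without delaminating replicate 2 and 0.51 without delaminating 3.

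**Figure D4:**
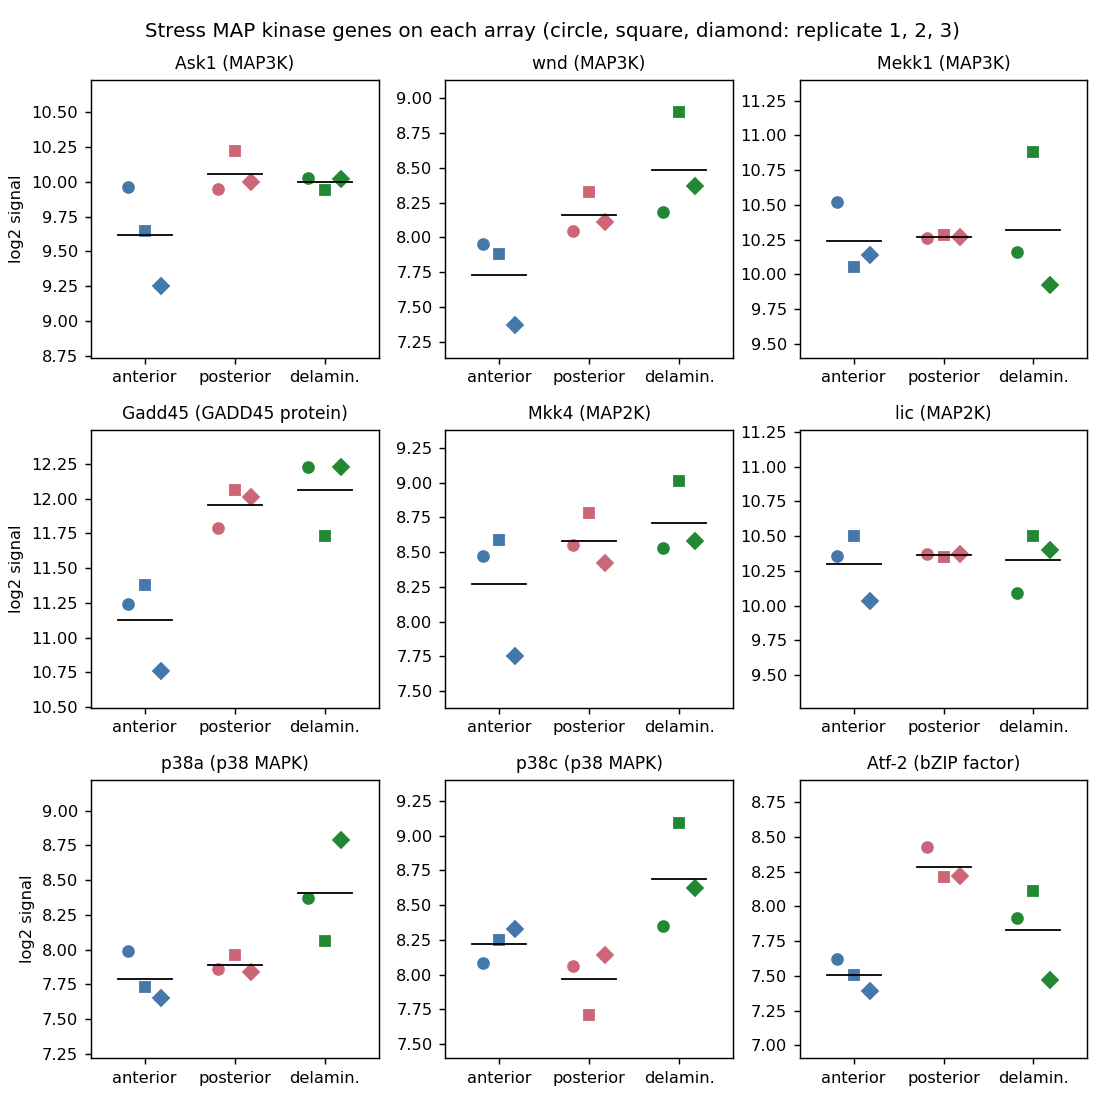
Log2 signal of each of the 9 genes on each array, by group, with circles, squares and diamonds for replicates 1, 2 and 3 and a line at each group mean. Every panel spans the same 2 log2 units: Gadd45 runs from 10.76 in anterior to 12.23 in delaminating cells, while lic stays between 10.03 and 10.50.

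Patterns most like those of the 2 genes with the widest range of group means were sought over all 9 arrays. The measure was the root mean square difference between log2 values centred on each gene's own mean, where smaller is more alike. For Gadd45 the nearest genes were Tep3, of the thioester proteins, at 0.112, amd at 0.121 and knk, known for organising chitin, at 0.130, against a median of 0.495 over all genes. Tep3 had 9.49 ± 0.40 in anterior cells against 10.28 ± 0.04 in posterior and 10.43 ± 0.18 in delaminating cells. For Atf-2 the nearest were the importin gene Kap-alpha3 at 0.117, CG34171 at 0.130 and GC1 at 0.154, against a median of 0.438. CG34171 had 9.76 ± 0.07 in posterior cells against 9.15 ± 0.27 in anterior and 9.33 ± 0.35 in delaminating cells. The choice over the same 9 arrays fixes the group order of such genes, so it was not tested.

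The wider pathway was described by 5 further lists with 42 genes, of which 31 were measured. Measured means that a probe set with 1 gene was found under the gene's name. The remaining genes may still be on the array. In delaminating against posterior cells 1 of the 31 was called higher and 0 lower (0.643% and 0.159% of all genes), with a median log2 difference of 0.04. In posterior against anterior cells 0 were higher and 1 lower, against 0.0918% and 0.484% of all genes (median 0.17), and in delaminating against anterior cells 3 were higher and 0 lower (median 0.21, shares of all genes as above). The sort used a reporter of a gene that JNK is known to induce, so the JNK targets among these genes are not independent of it.

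In the JNK cascade, 11 of 12 genes were measured. egr, the ligand of the TNF type that activates JNK, was 2.53-fold lower in posterior than in anterior cells (adjusted p = 0.0345). It read 10.09, 10.30 and 10.31 in anterior, 8.41, 9.06 and 9.21 in posterior and 9.40, 9.34 and 9.74 in delaminating cells. Its call was lost without any 1 array except posterior replicate 3 (adjusted p from 0.0529 to 0.141), with only the groups compared in the fit (0.123) and with the mean of its probe sets (0.05003). Its receptor gene grnd was 2.59-fold higher in delaminating than in anterior cells, at 9.63 ± 0.15 against 8.26 ± 0.54 (adjusted p = 0.0182). That call was lost without delaminating replicate 1 (0.0601), 2 (0.0512) or 3 (0.0824), and with only the groups compared (0.0733). The adaptor gene Traf4 was 2.36-fold above posterior in delaminating cells, just short of the threshold (adjusted p = 0.0513), and passed without anterior replicate 3 (0.0241) or posterior 3 (0.0355). With the mean of its probe sets the log2 difference was 0.70 in place of 1.24 (adjusted p = 0.303). hep, the gene of the JNK kinase, and bsk, the JNK gene itself, were called in no comparison. The medians of this list were -0.01 for delaminating against posterior cells, 0.24 for posterior and 0.21 for delaminating cells against anterior cells.

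Negative regulators and bZIP factors held the other called genes. puc, the phosphatase that JNK induces and that limits it, lay at 9.56, 9.24 and 9.12 in anterior, 9.22, 9.71 and 9.59 in posterior and 10.25, 10.28 and 10.47 in delaminating cells. It was 2.04-fold higher in delaminating than in anterior cells (adjusted p = 0.0176) and differed from posterior cells by 0.83 (adjusted p = 0.106, or 0.0433 without anterior replicate 3). The first call was lost without anterior replicate 2 (0.0637), delaminating 1 (0.0586) or delaminating 3 (0.0803), and with only the groups compared (0.0598). The other 5 measured regulators, hiw and the thioredoxin gene Trx2 among them, were called in no comparison. Jra, the fly Jun, was 2.14-fold higher in delaminating than in posterior cells (adjusted p = 0.0353) and 1.87-fold higher than in anterior cells (adjusted p = 0.0228). Its values were 8.98, 9.39 and 8.85 in anterior, 8.89, 8.84 and 8.91 in posterior and 9.83, 10.03 and 10.07 in delaminating cells. The first of these calls was lost without any 1 array except anterior 2 or 3 (adjusted p from 0.0529 to 0.164), and the second without anterior 1 (0.0649), delaminating 1 (0.0588), 2 (0.064) or 3 (0.095), or with only the groups compared (0.102). Of the other 5 bZIP genes none was called. Atf3 differed by -0.69 (adjusted p = 0.241) and Irbp18 by 0.91 (adjusted p = 0.298) in posterior against anterior cells. In delaminating against anterior cells the values were -0.77 (adjusted p = 0.0561) and 0.99 (adjusted p = 0.0851). There kay differed by 0.84 (adjusted p = 0.109), and in delaminating against posterior cells by 0.63 (adjusted p = 0.404).

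Of 9 genes listed under p38 effectors and outputs 5 were measured, and limma called 0 in any comparison. Whether p38 acts on each of the 5 was not tested. In delaminating against anterior cells 2 were higher and 1 lower at an unadjusted p under 0.05. The kinase gene Lk6 differed by -0.41 (adjusted p = 0.274), the redox factor gene cnc by 0.61 (adjusted p = 0.291) and Keap1, whose product binds that of cnc, by 0.78 (adjusted p = 0.28). Duox, whose expression in the fly gut is known to depend on p38, differed by 0.15 (adjusted p = 0.713), or -0.029 without anterior 3 and delaminating 2. Without those 2 arrays cnc differed by 0.21 and Keap1 by 0.16. Without anterior 3 alone cnc differed by 0.27 and Keap1 by 0.49, and without delaminating 2 alone Keap1 differed by 0.46 and Lk6 by -0.27. The ERK cascade, the MAP kinase branch of growth factor signalling, had 3 of 7 genes measured (ksr, Dsor1 and aop). In each comparison 0 were called by limma and 0 had an unadjusted p under 0.05. This list was thus described without Ras85D, Raf, rl and pnt.

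**Figure D5:**
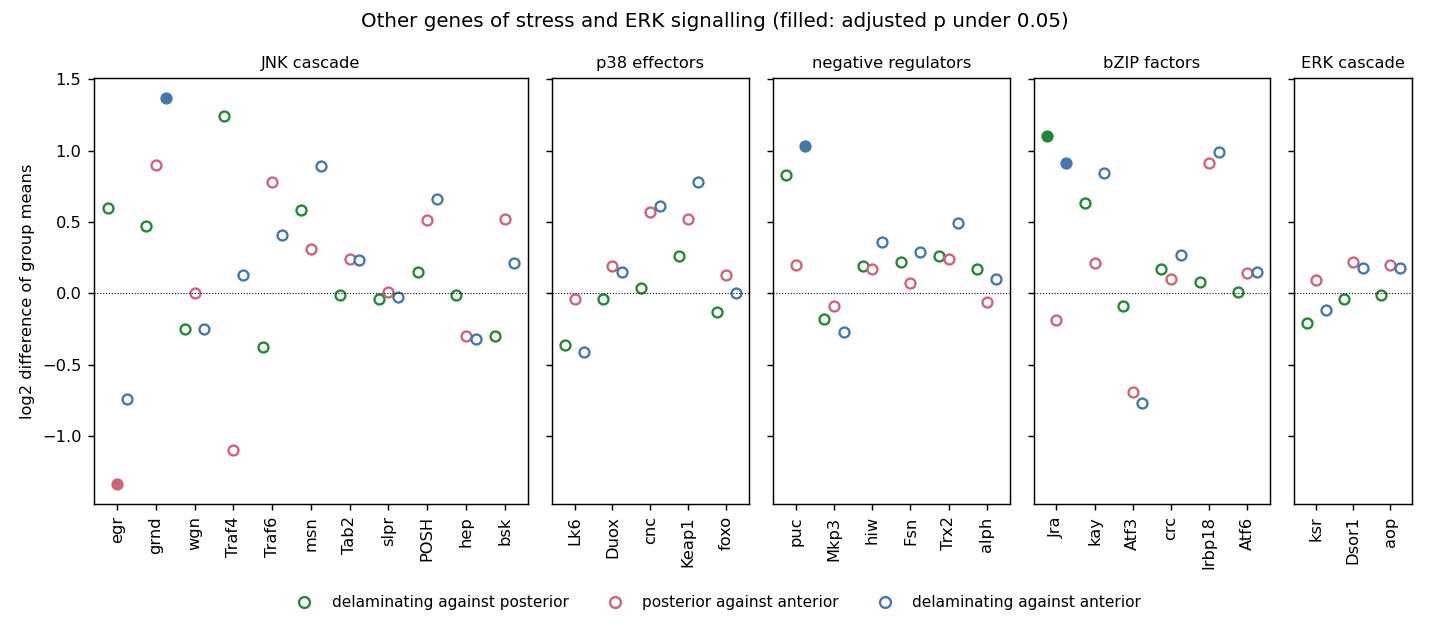
Log2 differences of group means for the 31 measured genes of the 5 other lists, coloured by comparison, with filled points for an adjusted p under 0.05. The filled points are egr below 0 in posterior against anterior cells, and grnd, puc and Jra above 0 in delaminating cells.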

How the data were processed

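The authors deposited log2 signals per probe set made with RMA, per the submitters' processing notes (version not given in the sources used here). Discs were taken apart with trypsin, cells sorted and whole-transcriptome RNA amplified, per the labels. All 9 arrays entered the fit. Of 18952 probe sets 183 controls were left out, 13647 carried 1 gene and gave 11982 genes, each by its brightest set, named through the RefSeq table of GCF_000001215.4 (11894 matched). For arrays, their number limits the precision.

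limma 3.58.1 in R 4.3.3 fitted a mean per group to all 9 arrays. Tests were two-sided, with Benjamini-Hochberg adjustment over 11982 genes and a threshold of 0.05. The procedure was tested on simulated data. Figures used matplotlib 3.10.9.

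The genes, lists and named genes were chosen with earlier results of these data known. From each list the text names its called genes or, with none, those with the smallest p. A few others were chosen after their values were seen (hep, bsk, hiw, Duox, kay and some cell type markers). There were 19 alternatives, each changing 1 choice, except that 1 left out a pair of arrays together and 1 set an intensity trend with robust variances.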

Additional observations from a re-analysis of the deposited data

How the results depend on the processing

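Of 27 differences of the 9 genes, 13 kept their sign and their side of the threshold in all 19 alternative settings and 18 never changed sign. The 32 values with a changed sign were at most 0.27 in size, with an adjusted p of at least 0.166. In posterior against anterior cells they were p38a (-0.011), lic (-0.077) and Mekk1 (-0.094) with a second quantile normalization, p38a (-0.014), lic (-0.041) and Mekk1 (-0.072) with arrays centred on their medians, lic (-0.091) with array weights, and lic (-0.067) and Mekk1 (-0.012) without both anterior 3 and delaminating 2. In delaminating against anterior cells they were, in the same order of settings, lic (-0.11) and Mekk1 (-0.051), lic (-0.063) and Mekk1 (-0.0083), lic (-0.27), and lic (-0.18), Mekk1 (-0.24) and, outside the 9 genes, Duox (-0.029). In delaminating against posterior cells they were Mkk4 (-0.0039) and Mekk1 (-0.11) with array weights, and Mkk4 (-0.032) and Mekk1 (-0.23) without both arrays. With 1 array left out, differences that changed sign ranged in delaminating against posterior cells from -0.12 to 0.019 for Ask1, -0.032 to 0.22 for Mkk4, -0.12 to 0.085 for lic and -0.23 to 0.25 for Mekk1. They ranged in posterior against anterior cells from -0.067 to 0.17 for lic and -0.057 to 0.18 for Mekk1, and in delaminating against anterior cells from -0.10 to 0.15 for lic and -0.19 to 0.29 for Mekk1. The cause was not tested.

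Array weights called 1 of the 9 genes in delaminating against posterior cells (p38a, adjusted p = 0.0456), 2 in posterior against anterior cells (Gadd45, 0.0377, and Atf-2, 0.0161) and 2 in delaminating against anterior cells, where p38a (0.0109) joined Gadd45. They lowered other differences from anterior cells, to 0.036 for Mkk4, 0.39 for wnd, 0.24 for p38c, 0.30 for cnc and 0.48 for Keap1 in delaminating cells and 0.040 for Mkk4 in posterior cells. Against posterior cells they lowered wnd to 0.12 and p38c to 0.47. The last count was 0 with the replicate block and with only the groups compared, and 0 to 1 with 1 array left out. In the first and second comparison no left-out array gave a call (0 to 0).

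Over all genes, delaminating against posterior cells had 96 calls, against 185 with only the groups compared, 749 with array weights, 270 without anterior 3 and delaminating 2, and 17 to 281 with 1 array left out. Posterior against anterior cells had 69, against 129 with all probe sets, 427 with array weights and 35 to 88 with 1 array left out. Delaminating against anterior cells had 458, against 709 with all probe sets, 180 with only the groups compared, 1974 with array weights and 212 to 567 with 1 array left out.

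Groups share replicate numbers, but nothing in the labels pairs them. Correlations of deviations between arrays with the same number lay between -0.120 and 0.181, and not every pair exceeded 0.1. Between arrays with different numbers they lay between -0.181 and 0.146. For delaminating and posterior arrays the same numbers gave 0.153, 0.181 and 0.014, and different numbers -0.171 to 0.094. For anterior and posterior arrays the same numbers gave -0.004, 0.169 and 0.165, and different numbers -0.181 to 0.098. For anterior and delaminating arrays the same numbers gave 0.101, -0.120 and -0.098, and different numbers -0.081 to 0.146. These values do not settle whether the arrays were paired. With the replicate block Gadd45 lost its call in delaminating against anterior cells (adjusted p = 0.0916), and Jra lost its call against posterior cells (0.0572). Traf4 passed (0.0392).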
